A study of Homo sapiens with 12 samples.

Results

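A set of 10 genes of the epithelial to mesenchymal transition was followed in human germ cell tumour lines treated with I-BRD9. This compound blocks the bromodomain, an acetyl-lysine reader, of BRD9, a protein found in non-canonical BAF chromatin remodelling complexes. The set held the transcription factors ZEB1, ZEB2, TWIST1, SNAI1 and SNAI2, the cadherins CDH1 and CDH2, and VIM, THY1 and TGFBI. Members were taken by gene symbol, and each of the 10 matched 1 gene among the 63241 genes of the count table. The lines were 2102 EP, labelled as embryonal carcinoma and grown in DMEM, and TCam-2, a seminoma line grown in RPMI. Both had the genotype label WT and received 15 µM I-BRD9 or the solvent DMSO for 24 h. The 4 groups held 3 libraries each, labelled as biological replicates. Each tumour type is represented by 1 line, and the medium differed with the line, so that these cannot be told apart in a comparison of the lines. Nothing says that replicates came from separate cultures, and p-values measure only the spread between these libraries.

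The transition is the process by which polarised epithelial cells loosen their junctions and take on a migratory form. ZEB, SNAI and TWIST proteins are the transcription factors best known for driving it: ZEB and SNAI proteins repress CDH1, which encodes E-cadherin, through E-box sequences, while CDH2 (N-cadherin) and vimentin are the usual mesenchymal readouts. Embryonal carcinoma cells resemble the pluripotent epiblast, which itself expresses E-cadherin, and seminoma cells resemble primordial germ cells.

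Promoter windows of 300 bases, from 250 before to 50 after the RefSeq start site, were matched by symbol for 5 of the 10 genes (ZEB1, ZEB2, VIM, CDH2 and TGFBI; not for TWIST1, SNAI1, SNAI2, CDH1 and THY1). Shown here, from RefSeq on GRCh38.p14 and written 5′ to 3′ on the gene's strand, are the windows of the paralogues ZEB1 and ZEB2, whose transcripts were both higher with I-BRD9 in 2102 EP, and of VIM and CDH2, whose transcripts were both lower with it in TCam-2. The ZEB1 window lies at chr10:31318167-31318466 (plus strand), ZEB2 at chr2:144520070-144520369 (minus), VIM at chr10:17227991-17228290 (plus) and CDH2 at chr18:28177081-28177380 (minus). Capitals mark the E-box CAGGTG.
ZEB1: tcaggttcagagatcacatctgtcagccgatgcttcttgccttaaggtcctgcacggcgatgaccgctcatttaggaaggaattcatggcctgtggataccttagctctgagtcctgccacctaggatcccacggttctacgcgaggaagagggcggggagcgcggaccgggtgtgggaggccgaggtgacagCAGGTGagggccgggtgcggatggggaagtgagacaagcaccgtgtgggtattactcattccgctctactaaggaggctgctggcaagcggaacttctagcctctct
ZEB2: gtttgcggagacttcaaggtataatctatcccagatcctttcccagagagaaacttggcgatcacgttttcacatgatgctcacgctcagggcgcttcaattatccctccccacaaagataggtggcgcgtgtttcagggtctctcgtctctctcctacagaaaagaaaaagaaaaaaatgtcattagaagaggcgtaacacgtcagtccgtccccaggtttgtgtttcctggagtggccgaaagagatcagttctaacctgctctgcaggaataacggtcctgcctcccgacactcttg
VIM: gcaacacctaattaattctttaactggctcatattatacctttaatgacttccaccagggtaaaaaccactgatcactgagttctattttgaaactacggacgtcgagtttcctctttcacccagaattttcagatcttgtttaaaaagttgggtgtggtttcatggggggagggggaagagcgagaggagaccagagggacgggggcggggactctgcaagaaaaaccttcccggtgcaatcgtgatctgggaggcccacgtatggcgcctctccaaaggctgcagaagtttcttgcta
CDH2: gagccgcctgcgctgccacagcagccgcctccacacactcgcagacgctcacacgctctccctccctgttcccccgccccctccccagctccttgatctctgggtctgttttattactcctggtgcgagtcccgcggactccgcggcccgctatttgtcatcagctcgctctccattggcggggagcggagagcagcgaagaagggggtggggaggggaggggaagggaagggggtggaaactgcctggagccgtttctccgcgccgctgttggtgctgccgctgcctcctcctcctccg
The search took CAGGTG and its reverse complement CACCTG on both strands, and CANNTG, which includes both of these and reads the same on either strand. ZEB1 held 1 CAGGTG, whose first base lies at position -57 from the start site, and none of the other 4 matched windows held CAGGTG or CACCTG. At least 1 of these E-boxes stood in 20.6% of all 35116 promoter windows. CANNTG occurred 2 times in the ZEB1 window and 1 time in that of ZEB2, and at least 1 time in 68.7% of all windows. The windows also differed in base composition: CDH2 and TGFBI were 67% and 72.7% G and C, with 23 and 27 CpG dinucleotides, while VIM was 48% with 10. A match describes the letters in these windows only.

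The 12 libraries held between 7290335 and 10053366 estimated counts, and 20850 to 22044 genes had at least 1 count. Replicates differed by more than counting noise (chi-square per degree of freedom between 4.79 and 12.1). Levels are given as CPM, a gene's count relative to its library's total after scaling by TMM, in which 3 counts correspond to 0.296 to 0.408 CPM depending on the library. For these 3′ end libraries CPM does not depend on transcript length. All 7 embryonal carcinoma markers (SOX2, DNMT3B, GDF3, NANOG, LIN28A, POU5F1 and TDGF1) had counts in every 2102 EP library. All 8 seminoma markers had counts in every TCam-2 library with DMSO. Reads of POU5F1 and TDGF1 were partly shared in all 12 libraries, of NANOG in 8 and of DNMT3B in 1. Among the seminoma markers, those of PRDM1 were also partly shared in 10 libraries and those of SOX17 in 1. Detection did not separate the lines. The 7 also had counts in every TCam-2 library with DMSO, and 6 of the 8 in every 2102 EP library with DMSO. POU5F1 stands in both lists, and with DMSO it and NANOG were higher in TCam-2 (693 against 385 and 523 against 175 CPM). Of the marker levels, the summed embryonal carcinoma list stood at 3040 to 3120 CPM with DMSO and 1340 to 1400 CPM with I-BRD9 in 2102 EP, and at 1520 to 1600 and 491 to 503 CPM in TCam-2. The seminoma list stood at 2230 to 2630 CPM with DMSO and 1560 to 1710 CPM with I-BRD9 in TCam-2. In 2102 EP it stood at 522 to 623 and 307 to 345 CPM. The part of these shifts in the results below was not tested.

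A gene was called when its adjusted p was under 0.05 in edgeR's quasi-likelihood test, adjusted by the Benjamini-Hochberg method over the 15614 genes that passed the low-count filter, and rose and fell are used of called genes only. SNAI2 did not pass this filter. ZEB1 and ZEB2 passed only through the 2102 EP libraries with I-BRD9, and SNAI1 only through 2102 EP. ZEB1 and ZEB2 thus had to be high in those treated libraries to be tested, so that their calls in 2102 EP are no independent support for a rise. All 3 had to be high in 2102 EP, which bears on their comparisons between the lines. With I-BRD9 in 2102 EP, 5 members rose (ZEB1, ZEB2, TWIST1, VIM and TGFBI), THY1 fell, and SNAI1, CDH1 and CDH2 were not called. Over all genes tested, 36.8% were called in this line, 18.2% higher and 18.6% lower. In TCam-2, 2 members rose (TWIST1 and TGFBI), 3 fell (VIM, CDH2 and THY1) and 4 were not called, beside 31.8% of all genes called, 15.3% higher and 16.5% lower. VIM was called in opposite directions in the 2 lines, as were 273 genes, or 1.75% of those tested.

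**Figure D1:**
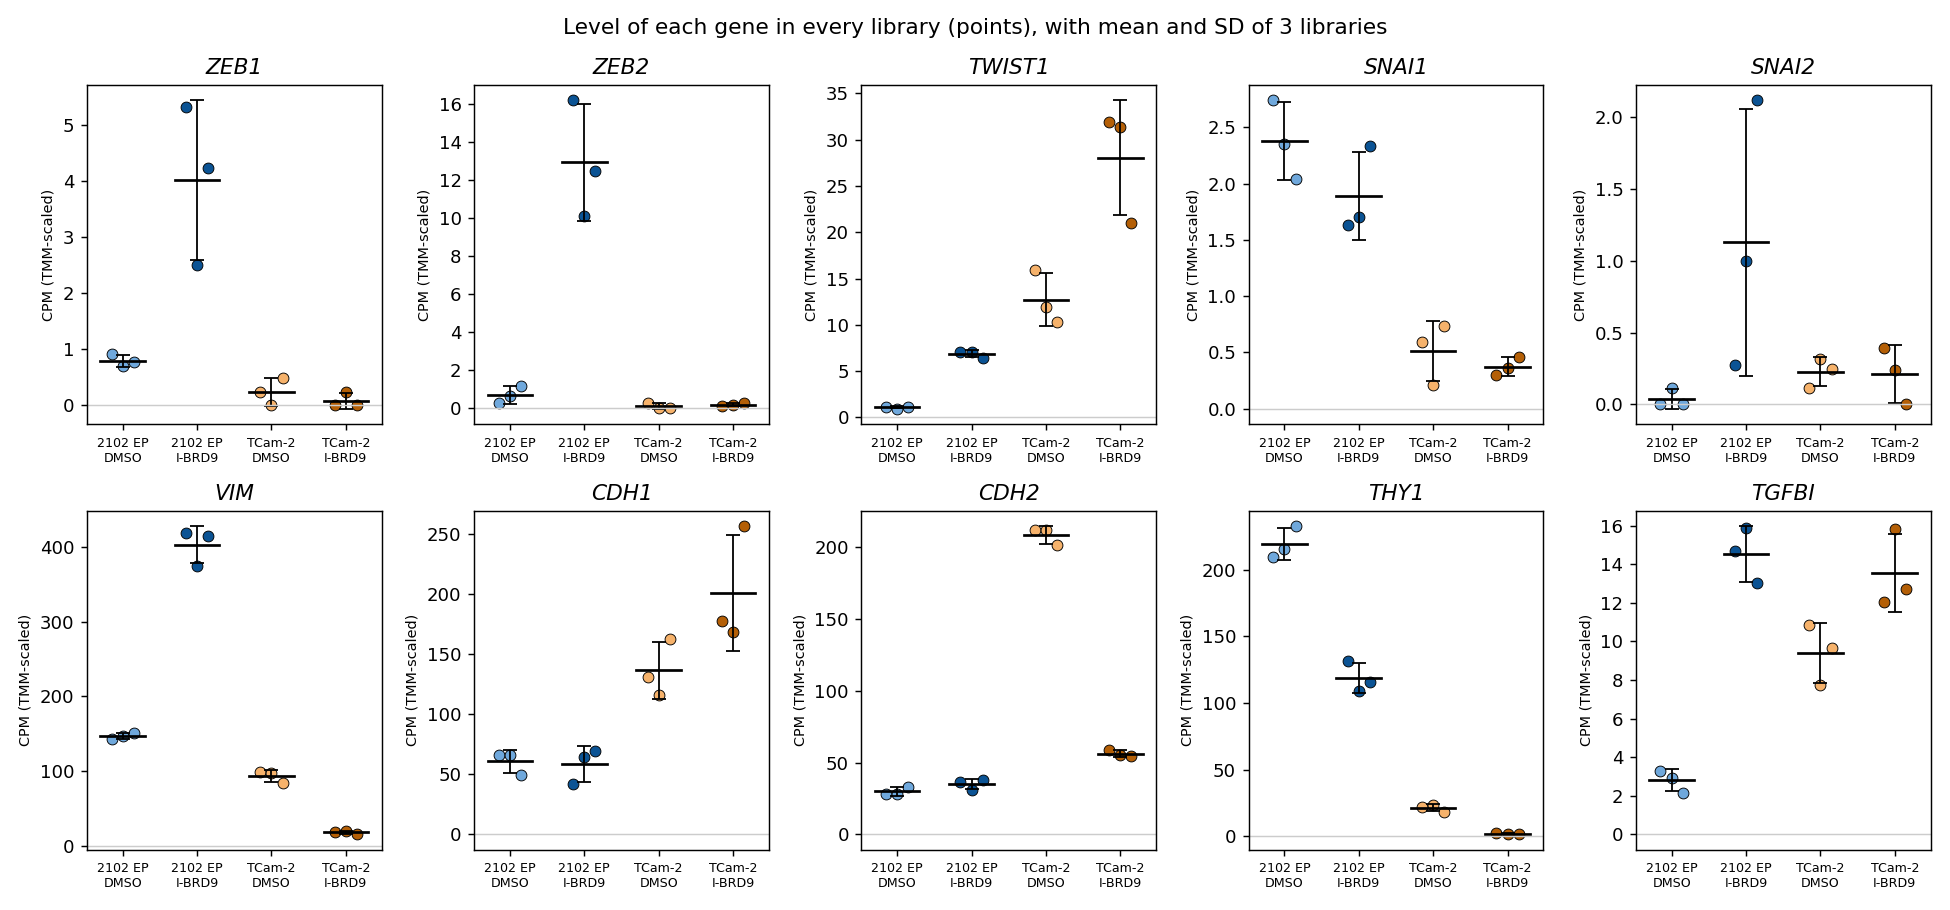
Level of each of the 10 genes in CPM (linear axis, with its own range in each panel) in the 4 groups of line and treatment; each point is 1 library, the wide bars are group means and the error bars the SD of 3 libraries. VIM lies between 375 and 419.8 CPM in 2102 EP with I-BRD9 and between 15.2 and 19.4 CPM in TCam-2 with I-BRD9, and ZEB2 is between 10.1 and 16.2 CPM only in 2102 EP with I-BRD9.

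ZEB2, on chromosome 2 (144364364 to 144524583, minus strand, GRCh38), is a zinc finger and homeodomain repressor that binds paired E-boxes. In 2102 EP it was measured at 0.228, 0.588 and 1.15 CPM with DMSO (replicates 1, 2 and 3) and at 16.2, 10.1 and 12.5 CPM with I-BRD9. Every treated library stood well above every control library, which held only 16 counts together against 332. The log2 fold change was 4.30 ± 0.43 (SE, n = 3 against 3; edgeR adjusted p = 5.03e-08), which was the 22nd largest among the 2837 genes that rose in this line, and it was 4.94 without DMSO replicate 3. ZEB2 passed the low-count filter only through these treated libraries, so that its p-value and place follow a choice by those values. In bulk libraries a change in the share of cells that express a gene and a change in RNA per cell cannot be told apart. TCam-2 gave 0.236, 0 and 0 CPM with DMSO and 0.0987, 0.120 and 0.232 CPM with I-BRD9, all under the level of 3 counts. Those libraries held 2 and 4 counts in all, a ratio of 1.93 with a 95% interval from 0.276 to 21.3 that covers counting error only, so no change was detectable at this depth. The difference between the lines was not called (edgeR adjusted p = 0.175).

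ZEB1, the paralogue on chromosome 10 (31318495 to 31529814, plus strand, GRCh38), encodes a repressor of the same build. In 2102 EP it stood at 0.913, 0.706 and 0.765 CPM with DMSO and at 5.31, 2.50 and 4.23 CPM with I-BRD9. The groups did not overlap, the treated mean being 4.01 ± 1.42 CPM (SD, n = 3) and the control mean 0.795 ± 0.107 CPM. ZEB1 thus rose by 2.30 ± 0.56 (log2, SE; edgeR adjusted p = 0.00233), from 20 to 102 counts. It too passed the low-count filter only through these treated libraries. In TCam-2 it had 0.236, 0 and 0.489 CPM with DMSO and 0, 0.240 and 0 CPM with I-BRD9. With 6 and 2 counts in all, the ratio of I-BRD9 to DMSO was 0.321 (95% counting interval 0.0317 to 1.8), and no change was detectable. The difference between the lines had an edgeR adjusted p of 0.0588. It passed with DESeq2 (0.0381), without the low-count filter (0.0298), without TCam-2 DMSO replicate 2 (0.0212) and without TCam-2 I-BRD9 replicate 2 (0.0195). Those were the 2 of 12 fits with 1 library left out that called it, and the edgeR adjusted p reached 0.331 in another. The antisense gene ZEB1-AS1, which overlaps ZEB1 at its start and whose reads were partly shared with other genes, was not called in 2102 EP (0.23, edgeR adjusted p = 0.92) or in TCam-2 (0.18, 0.945). Its counts ran from 2 to 72.86 within 2102 EP with DMSO and from 5 to 78.4 with I-BRD9. At this spread a change could hardly be detected.

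TWIST1, a basic helix-loop-helix factor on chromosome 7 (19020991 to 19117672, minus strand, GRCh38), rose in both lines. Its levels in 2102 EP were 1.14, 0.941 and 1.15 CPM with DMSO and 7.07, 7.10 and 6.46 CPM with I-BRD9. TCam-2 started higher, at 15.9, 12.0 and 10.3 CPM with DMSO, and reached 31.9, 31.4 and 21.0 CPM with I-BRD9. No 2 neighbouring groups overlapped, and the order was TCam-2 with I-BRD9, TCam-2 with DMSO, 2102 EP with I-BRD9 and 2102 EP with DMSO. The log2 fold change was 2.66 ± 0.28 (SE) in 2102 EP, with an edgeR adjusted p of 1.06e-07, and 1.14 ± 0.18 in TCam-2 (3.98e-05). The effect was smaller in TCam-2 by a tested difference of -1.52 ± 0.34 (log2, TCam-2 minus 2102 EP; edgeR adjusted p = 0.00379).

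The 2 SNAI genes encode zinc finger repressors that act at E-boxes, SNAI1 being known as Snail and SNAI2 as Slug. SNAI1, on chromosome 20 (49982999 to 49988886, plus strand, GRCh38), was measured at 2.74, 2.35 and 2.04 CPM in 2102 EP with DMSO and at 1.63, 1.70 and 2.34 CPM with I-BRD9. In TCam-2 the values were 0.589, 0.212 and 0.733 CPM with DMSO and 0.296, 0.360 and 0.463 CPM with I-BRD9. Treated and control libraries overlapped in both lines. Every 2102 EP library lay above every TCam-2 library, but SNAI1 passed the low-count filter only through 2102 EP. Of all genes tested, 67.6% did not overlap between the lines with DMSO and 66.3% with I-BRD9. The log2 fold change was -0.33 ± 0.42 in 2102 EP (SE; edgeR adjusted p = 0.58), and TCam-2 gave -0.43 ± 0.62 (0.654).

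SNAI2 had 0, 1 and 0 counts in 2102 EP with DMSO and 2, 10 and 19 counts with I-BRD9. These treated libraries, at 0.272, 1.00 and 2.12 CPM, were all above their controls but spread widely among themselves. The ratio of counts was 29.5, with a 95% counting interval from 4.92 to 1200. When the filter was dropped and 32283 genes were tested, SNAI2 gave 4.43 ± 1.17 (log2, SE; edgeR adjusted p = 0.00141), a fitted value that depends on how a near-zero control is handled. TCam-2 had 1, 3 and 2 counts with DMSO and 4, 2 and 0 with I-BRD9, groups that overlapped.

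VIM, on chromosome 10 (17228259 to 17237593, plus strand, GRCh38), encodes vimentin, the type III intermediate filament protein of mesenchymal cells. In 2102 EP it was measured at 143, 147 and 152 CPM with DMSO and at 419.8, 375 and 416 CPM with I-BRD9. In TCam-2 the control libraries held 99.1, 97.8 and 84.2 CPM and the treated libraries 18.6, 19.4 and 15.2 CPM. The treated libraries were thus the highest in one line and the lowest in the other, and none of the 4 groups overlapped. VIM rose by 1.45 ± 0.09 (log2, SE) in 2102 EP, with an edgeR adjusted p of 1.32e-11, and fell by 2.40 ± 0.10 in TCam-2 (2.81e-14). The tested difference, TCam-2 minus 2102 EP, was -3.86 ± 0.13 (log2; edgeR adjusted p = 2.57e-15), the third smallest p among the 15614 genes tested. With DMSO the lines differed by -0.65 ± 0.09 (log2, TCam-2 against 2102 EP; edgeR adjusted p = 1.08e-06), and with I-BRD9 by -4.51 ± 0.10 (9.95e-20).

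**Figure D2:**
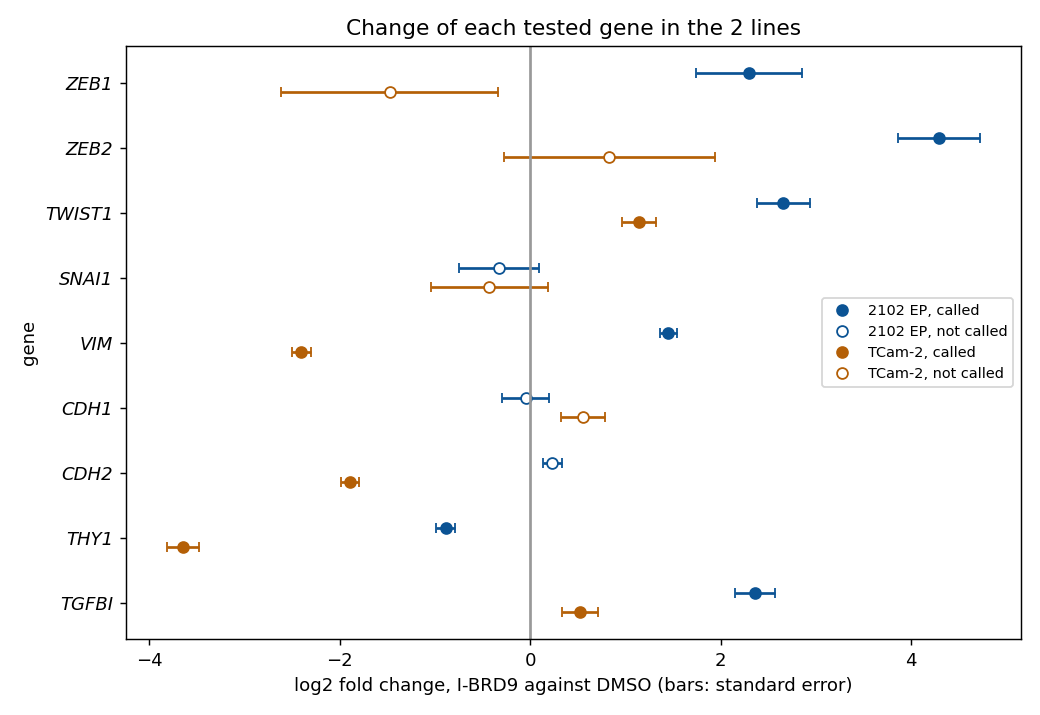
Log2 fold change with I-BRD9 against DMSO (x axis) for the 9 tested genes in 2102 EP (blue) and TCam-2 (orange); bars are the standard error of the edgeR fit and filled points were called at an adjusted p under 0.05. VIM lies at 1.45 in 2102 EP and at -2.40 in TCam-2, and the TCam-2 points of ZEB1 and ZEB2 rest on 8 and 6 counts over both groups.

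CDH2, on chromosome 18 (27950966 to 28177446, minus strand, GRCh38), encodes N-cadherin, the adhesion protein of neural and mesenchymal cells. In TCam-2 it was measured at 212, 212 and 201 CPM with DMSO and at 58.8, 55.1 and 54.3 CPM with I-BRD9. The 2 groups were far apart and narrow, at 208.4 ± 6.23 and 56.1 ± 2.40 CPM (SD, n = 3). CDH2 fell by 1.89 ± 0.09 (log2, SE; edgeR adjusted p = 3.73e-13). In 2102 EP it stood at 28.2, 28.2 and 33.2 CPM with DMSO and at 36.5, 31.1 and 37.9 CPM with I-BRD9, groups that overlapped. The change of 0.23 ± 0.10 (log2, SE) had an edgeR adjusted p of 0.0742, which became 0.0298 without DMSO replicate 3 and 0.0245 without I-BRD9 replicate 2. The effects differed between the lines by -2.13 ± 0.14 (log2; edgeR adjusted p = 1.66e-10). Reads of CDH2 were partly shared with another gene in 2 libraries, so its counts there are uncertain.

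CDH1, on chromosome 16 (68737225 to 68835548, plus strand, GRCh38), encodes E-cadherin, the calcium-dependent adhesion protein of epithelial junctions. Its levels in 2102 EP were 65.8, 66.2 and 49.7 CPM with DMSO and 41.8, 64.5 and 69.5 CPM with I-BRD9. These groups overlapped, and the log2 fold change was -0.04 ± 0.25 (SE; edgeR adjusted p = 0.917) beside the rises of ZEB1, ZEB2 and TWIST1 in the same libraries. In TCam-2 the values were 131, 116 and 162 CPM with DMSO and 177.5, 169 and 256 CPM with I-BRD9. The treated libraries lay above the controls without overlap, but the change of 0.56 ± 0.23 was not called (edgeR adjusted p = 0.102). Non-overlap alone was common: it held for 46.3% of the genes tested in 2102 EP and for 45.7% in TCam-2, and for 6 of the 9 tested members in each line. The difference between the lines was 0.60 ± 0.34 (log2, SE; edgeR adjusted p = 0.31).

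The balance of the 2 cadherins was read within each library as the log2 ratio of CDH2 to CDH1 counts, a description with no test. With DMSO it was -1.22, -1.23 and -0.585 in 2102 EP and 0.697, 0.87 and 0.312 in TCam-2. In the treated libraries it was -0.196, -1.05 and -0.875 for 2102 EP and -1.59, -1.61 and -2.24 for TCam-2. Of the 12 libraries, CDH2 exceeded CDH1 only in the 3 TCam-2 controls, and the treated TCam-2 libraries had the lowest ratios of all 12. The TCam-2 mean went from 0.626 ± 0.286 to -1.82 ± 0.367 (SD, n = 3), whereas the 2102 EP groups, at -1.01 ± 0.37 and -0.708 ± 0.452, overlapped.

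**Figure D3:**
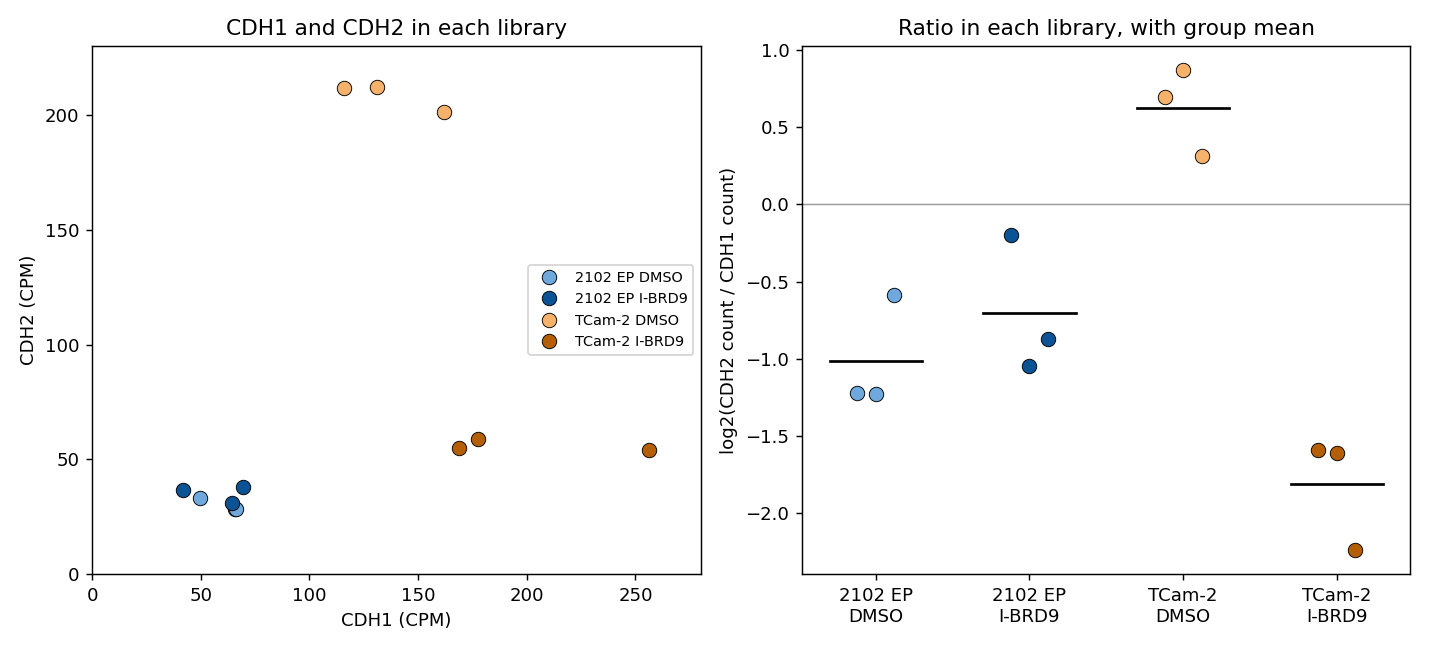
Left, CDH2 level against CDH1 level, both in CPM on linear axes; right, the log2 ratio of CDH2 to CDH1 counts by group. Each point is 1 library and bars are group means. The ratio is above 0 in the 3 TCam-2 libraries with DMSO and between -2.24 and -1.59 in the 3 with I-BRD9.

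THY1, on chromosome 11 (119417378 to 119424985, minus strand, GRCh38), encodes the surface glycoprotein CD90, which marks mesenchymal stromal cells and also undifferentiated pluripotent cells. In 2102 EP it was measured at 209.9, 216 and 233 CPM with DMSO and at 131, 109 and 115.5 CPM with I-BRD9. In TCam-2 it stood at 22.0, 23.6 and 18.3 CPM with DMSO and at 1.97, 1.80 and 1.27 CPM with I-BRD9. Treated libraries were lower in both lines and the 4 groups did not overlap. THY1 fell by 0.89 ± 0.10 (log2, SE) in 2102 EP, with an edgeR adjusted p of 1.56e-07. In TCam-2 it changed by -3.65 ± 0.17 (2.15e-13). The fall was larger in TCam-2, with a tested difference of -2.76 ± 0.21 (log2; edgeR adjusted p = 2.32e-09). All 7 embryonal carcinoma markers fell in the same comparisons, and their part in the THY1 values was not tested.

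TGFBI, on chromosome 5 (136028895 to 136063818, plus strand, GRCh38), encodes a secreted matrix protein named for its induction by TGF-beta. In 2102 EP it stood at 3.31, 2.94 and 2.17 CPM with DMSO and at 14.7, 15.9 and 13.0 CPM with I-BRD9. TCam-2 held it at 10.8, 7.73 and 9.65 CPM with DMSO and at 12.0, 15.8 and 12.7 CPM with I-BRD9. The 2102 EP controls were lowest, and the treated libraries of the 2 lines overlapped. TGFBI rose by 2.36 ± 0.21 in 2102 EP (log2, SE; edgeR adjusted p = 1.09e-08). The rise in TCam-2 of 0.52 ± 0.19 (edgeR adjusted p = 0.034) was not called without TCam-2 DMSO replicate 2 (0.167) or 3 (0.0691), without TCam-2 I-BRD9 replicate 2 (0.181) or 3 (0.0501), or without the low-count filter (0.0603). The effect was smaller in TCam-2 by -1.84 ± 0.28 (log2; edgeR adjusted p = 8.19e-05).

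Testing the difference between the I-BRD9 effects called 5 of the 9 tested members (TWIST1, VIM, CDH2, THY1 and TGFBI), each lower in TCam-2 than in 2102 EP. Over all genes 13.1% were called for this difference, 7.19% lower and 5.9% higher. For TWIST1, TGFBI and THY1 the direction was the same in both lines and the size differed. For VIM the directions were opposite, and for CDH2 the change was called in TCam-2 only.

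The lines differed before treatment, in a comparison that shares its DMSO libraries with those above. With DMSO, 4 members were higher in TCam-2 (TWIST1, CDH2, TGFBI and CDH1) and 4 lower (ZEB2, SNAI1, VIM and THY1), beside 62.6% of all genes called, 31.7% higher and 30.8% lower. The groups did not overlap for 8 of the 9 tested members, beside 67.6% of all genes. TWIST1 was higher by 3.55 ± 0.26 (log2, SE; edgeR adjusted p = 6.82e-11), CDH2 by 2.80 ± 0.10 (8.96e-17), TGFBI by 1.73 ± 0.22 (4e-07) and CDH1 by 1.17 ± 0.24 (0.00228). SNAI1, which passed the low-count filter only through 2102 EP, differed by -2.21 ± 0.50 (log2, edgeR adjusted p = 0.00049). THY1 differed by -3.36 ± 0.11 (2.49e-17). TCam-2 therefore carried more of both cadherins and of TWIST1, and less of THY1 and VIM. ZEB2 was 8.32 times as abundant in 2102 EP (95% counting interval 1.96 to 74.6; edgeR adjusted p = 0.00604), from 16 counts against 2. Its groups overlapped, 2102 EP replicate 1 (0.2283 CPM) lying below TCam-2 replicate 1 (0.2356 CPM), and the interval leaves out the spread between replicates. The fitted log2 difference of ZEB2 was -2.21 without 2102 EP DMSO replicate 3 (adjusted p = 0.0492) and -5.52 without TCam-2 DMSO replicate 1, which leaves TCam-2 with no count. ZEB1 was not called (0.0597) but passed with DESeq2 (0.0473) and without TCam-2 DMSO replicate 3 (0.0243). Of 6 fits with 1 library left out it passed in 1 only, and the edgeR adjusted p ran up to 0.221.

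With I-BRD9, 3 members were higher in TCam-2 (TWIST1, CDH1 and CDH2) and 5 lower (ZEB1, ZEB2, SNAI1, VIM and THY1), beside 62.2% of all genes called, 31.1% in each direction. Again 8 of the 9 did not overlap, beside 66.3% of all genes. The ZEB2 difference was -6.31 ± 0.53 (log2, SE; edgeR adjusted p = 5.34e-10) and that of THY1 was -6.12 ± 0.15 (3.55e-19). ZEB1 was 52.5 times as abundant in 2102 EP (95% counting interval 14.2 to 439; edgeR adjusted p = 2.37e-06), and its fitted log2 difference of -5.50 became -8.13 without TCam-2 I-BRD9 replicate 2, which leaves TCam-2 with no count. Both ZEB genes passed the low-count filter only through the 2102 EP libraries with I-BRD9, and SNAI1 only through 2102 EP. The calls and non-overlap of these genes here thus follow a choice by those values and are no independent support for a difference. CDH2 remained higher in TCam-2 by 0.68 ± 0.10 (edgeR adjusted p = 2.2e-06), and TGFBI, at -0.11 ± 0.18, was not called (0.622).

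Genes around these 10 were described by lists put together with earlier results of these data known. Their counts stand beside 18.2% of all tested genes higher and 18.6% lower in 2102 EP, and 15.3% and 16.5% in TCam-2. Of 44 epithelial identity genes, 43 were tested. In 2102 EP 15 rose and 18 fell, with a median log2 fold change of -0.235 beside 0.00253 over all genes, and in TCam-2 22 rose and 4 fell, with a median of 0.398 beside 0.00689. The count of rises in 2102 EP was 9 without DMSO replicate 2. KRT19, a keratin of simple epithelia, rose from 151 ± 4.21 to 388 ± 20.6 CPM in 2102 EP (SD, n = 3) and from 202 ± 5.62 to 745 ± 28.1 CPM in TCam-2. CD24, a surface glycoprotein of epithelial and embryonic cells, fell in 2102 EP from 323 ± 2.99 to 59.1 ± 3.77 CPM (log2 -2.45, edgeR adjusted p = 7.44e-16) and rose in TCam-2 from 187 ± 7.06 to 353 ± 7.19 CPM (0.91, 1.06e-09). ESRP1, a splicing regulator of epithelial isoforms, fell by 1.25 in 2102 EP (edgeR adjusted p = 1.2e-10) and by 0.34 in TCam-2 (0.0022). CLDN4, a tight junction protein, rose by 1.26 in TCam-2 (4.52e-09), and KRT7, another keratin of simple epithelia, fell there by 1.22 (3.94e-09). The difference between the lines was called for 23 of the 43, 21 higher and 2 lower in TCam-2, beside 13.1% of all genes.

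Of 57 mesenchymal and matrix genes outside the set, 48 were tested. In 2102 EP 12 rose and 11 fell (median 0.101), beside 36.8% of all genes called. In TCam-2 7 rose and 12 fell (median -0.00076), beside 31.8% of all genes called. VCAN, a large proteoglycan of provisional matrix, fell in both lines, from 111 ± 4.77 to 32.2 ± 3.38 CPM in 2102 EP and from 15.6 ± 1.04 to 5.56 ± 0.685 CPM in TCam-2 (SD, n = 3). COL5A1, a fibrillar collagen chain with shared reads in 2 libraries, rose in both by 1.20 (edgeR adjusted p = 2.77e-05) and 1.24 (4.11e-06). ITGAV, an integrin subunit, rose by 1.17 in 2102 EP (7.57e-06), where WNT5B, a secreted Wnt ligand, fell by 1.37 (3.64e-07). As for VIM, 6 of the 48 were called in opposite directions, beside 1.75% of all genes. This was not particular to the list, since 7 of the 43 tested epithelial identity genes were called in opposite directions too. For each of the 3 mesenchymal and matrix genes given here the direction was higher in 2102 EP and lower in TCam-2. SERPINE2, a protease inhibitor, rose from 53.9 to 107.8 CPM in 2102 EP and fell from 87.0 to 33.4 CPM in TCam-2 (edgeR adjusted p = 8.46e-09 and 8.53e-11). IGFBP3, a binding protein of insulin-like growth factors, changed by 1.51 (edgeR adjusted p = 0.000199) and -1.56 (7.63e-06). FN1, which encodes fibronectin and was picked after its values were seen, changed by 0.99 ± 0.17 (7.73e-05) and -1.05 ± 0.12 (3.03e-07).

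Among 22 other transcription factors tied to the transition, 16 were tested. In 2102 EP 5 rose and 6 fell, beside 36.8% of all genes called (31.8% in TCam-2). In TCam-2 5 rose and 2 fell, a count of rises that was 3 without DMSO replicate 3, I-BRD9 replicate 1 or I-BRD9 replicate 3, and 8 when only the TCam-2 libraries were fitted. ID2, an inhibitor of basic helix-loop-helix factors such as TWIST1, rose from 36.4 ± 2.99 to 148.5 ± 6.4 CPM in 2102 EP and from 432 ± 17.7 to 1416 ± 46.6 CPM in TCam-2 (SD, n = 3). HMGA2, an architectural chromatin protein, fell by 1.55 (log2; edgeR adjusted p = 1.02e-08) and 1.47 (1.1e-08). SOX4, whose reads were partly shared in 6 libraries, fell by 1.60 in 2102 EP (1.75e-13) and rose by 0.29 in TCam-2 (0.00313).

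**Figure D4:**
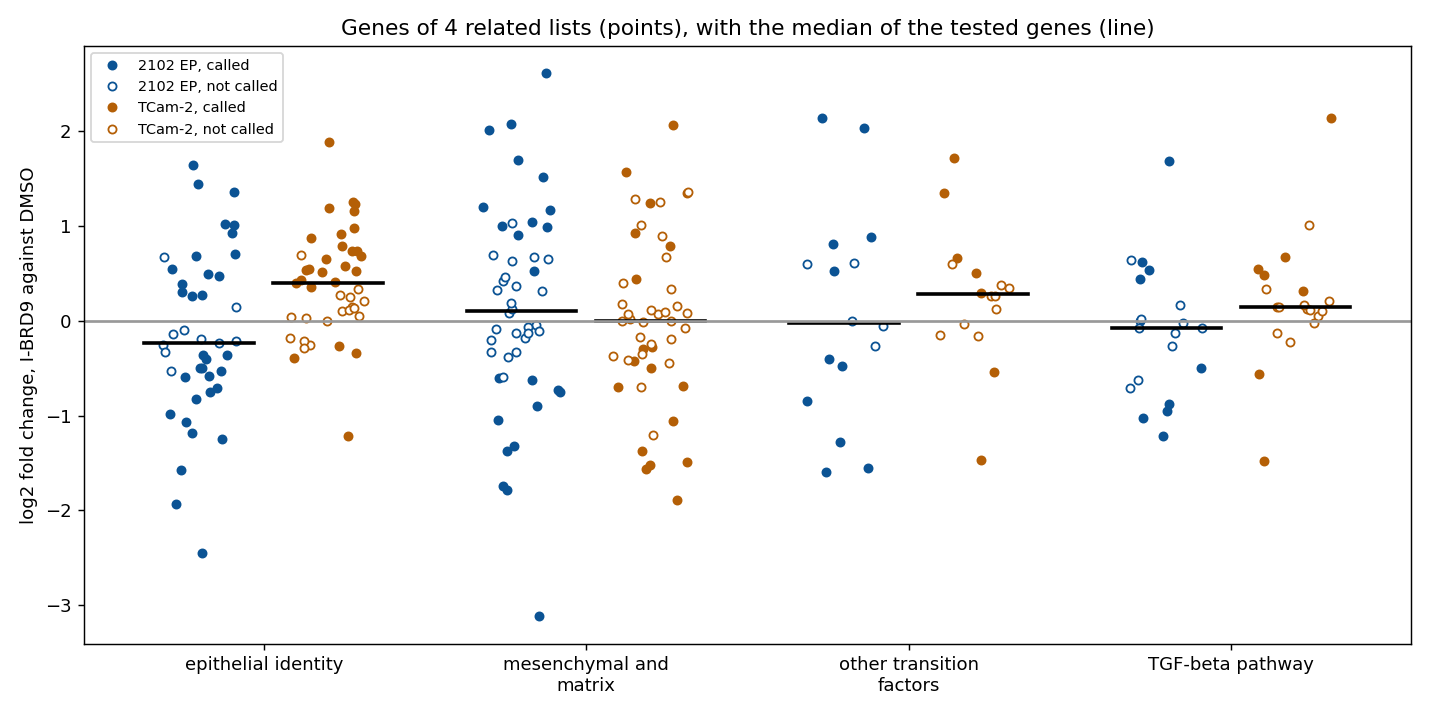
Log2 fold change with I-BRD9 against DMSO (y axis) for the tested genes of 4 related lists in 2102 EP (blue) and TCam-2 (orange); each point is 1 gene, filled points were called at an adjusted p under 0.05, and black lines are list medians. The epithelial median lies at -0.235 in 2102 EP and at 0.398 in TCam-2, and the medians of the mesenchymal and matrix genes lie at 0.101 and -0.00076.

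Of 20 other classical and type II cadherins, 7 were tested, and 2 of them were called in opposite directions, beside 1.75% of all genes. CDH4 (R-cadherin), with shared reads in 5 libraries, went from 6.72 to 10.9 CPM in 2102 EP (edgeR adjusted p = 0.00143) and from 54.4 to 34.6 CPM in TCam-2 (0.000238). CDH3 (P-cadherin) went from 87.0 to 56.4 CPM in 2102 EP (1.35e-05) and from 122.5 to 153 CPM in TCam-2 (0.00747). Both differences between the lines were called, -1.35 for CDH4 (log2; edgeR adjusted p = 4.94e-05) and 0.94 for CDH3 (1.51e-05). Of 8 tested catenins and partners that tie cadherins to actin, 3 rose and 1 fell in 2102 EP (36.8% of all genes called). In TCam-2 4 rose and 1 fell (31.8% of all genes called). The rises in 2102 EP numbered 1 without DMSO replicate 1, and the falls 2 without DMSO replicate 3, without I-BRD9 replicate 3, without the low-count filter and with a block by library code. JUP, plakoglobin, rose by 0.89 in 2102 EP (1.91e-05), CTNND1, p120-catenin, fell there by 0.56 (0.000326), and CTNNB1, beta-catenin, rose by 0.39 in TCam-2 (0.00197). CTNNA2, the neural alpha-catenin, fell by 2.57 ± 0.68 in TCam-2 (0.0137), a call that was lost with DESeq2 and without I-BRD9 replicate 2 or 3.

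Other intermediate filament genes outside the keratins gave 6 rises and 2 falls among 12 in 2102 EP (36.8% of all genes called). In TCam-2 they gave 4 rises and 3 falls (31.8% of all genes called). NEFM, a neurofilament subunit, rose from 2.81 ± 0.852 to 18.8 ± 3.1 CPM in 2102 EP and from 7.66 ± 1.61 to 14.3 ± 1.32 CPM in TCam-2 (SD, n = 3). NES, the nestin of neural precursors, rose in TCam-2 by 1.11 (log2; edgeR adjusted p = 9.66e-10). INA, a neuronal filament protein, rose in both lines, by 1.02 (6.81e-07) and 0.72 (2.59e-05). LMNB2, a nuclear lamin with shared reads in 3 libraries, fell in TCam-2 from 240.1 ± 16.7 to 121 ± 4.47 CPM (edgeR adjusted p = 6.27e-07), so that genes of this list went both ways in the line where VIM fell.

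Of 20 tested TGF-beta pathway genes, 4 rose and 5 fell in 2102 EP, beside 18.2% and 18.6% of all genes. In TCam-2 5 rose and 2 fell, beside 15.3% and 16.5%. The TCam-2 rises numbered 3 without DMSO replicate 1 or I-BRD9 replicate 2, and the falls 4 without the latter. PMEPA1, a membrane inhibitor of the pathway, fell from 143 ± 6.14 to 61.2 ± 2.78 CPM in 2102 EP (SD, n = 3; edgeR adjusted p = 1.05e-09) and SKIL, a SMAD corepressor, by 0.95 (4.04e-07). SMAD7, the inhibitory SMAD, rose by 0.67 (0.00226) and SMAD3, a signal-carrying SMAD, by 0.55 (0.018) in TCam-2. Among 11 corepressors that work with ZEB and SNAI proteins, 5 fell and 6 were not called in 2102 EP, where 18.6% of all genes fell. HDAC2 fell by 0.56 (1.73e-06) and EZH2 by 0.45 (0.000408). In TCam-2 3 fell and 1 rose, and the falls numbered 0 without DMSO replicate 1 and 1 without DMSO replicate 2, I-BRD9 replicate 1 or I-BRD9 replicate 2.

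The genes whose log2 CPM followed each member most closely over the 12 libraries were sought among 9553 genes by Pearson r. This is a description, since the points share line and treatment and each r was the highest of many. ZEB2 was followed by the mitochondrial transfer RNA gene MT-TL1 (r = 0.974), the histone-binding protein gene COPRS (0.972) and the cilium gene DZIP1 (0.968). TWIST1 was followed by ID4, another inhibitor of helix-loop-helix factors (0.994), and by the transcription factors TBX3 (0.9935) and HAND1 (0.993). For VIM the nearest were the splicing regulator MBNL3 (0.983), the retinoic acid binding protein CRABP1 (0.98) and the potassium channel KCNK5 (0.979). CDH1 ran with RGP1, COCH and KLHL9 (each 0.98), and TGFBI with MLYCD (0.972), the endocytic adaptor DAB2 (0.97) and the non-coding RNA UCA1 (0.965).

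Markers of other cells were low or held by few genes. The 7 blood and immune markers summed to 1.37 to 4.4 CPM over the 12 libraries, with CD3E and HBB at 0 in every group, and the 5 endothelial markers to 2.11 to 7.45 CPM. The 7 fibroblast and stromal markers summed to 17.5 to 23.3 CPM in 2102 EP with DMSO and 23.2 to 25.2 CPM with I-BRD9, with DCN, LUM and FAP at 0 in both. In TCam-2 they summed to 167 to 179 CPM with DMSO, with DCN at 0, and to 87.7 to 134 CPM with I-BRD9. Most of this was the collagen gene COL1A2, which went from 150.1 ± 6.98 to 92.7 ± 23.6 CPM (SD, n = 3; edgeR adjusted p = 0.000326). Among antisense genes that overlap members, ZEB1-AS1 had the most counts over all libraries, 419.7. VIM-AS1 had 24, ZEB2-AS1 had 3, AC003986.2 over TWIST1 had 15, AC110015.1 over CDH2 had 26 and USP2-AS1 over THY1 had 166. SNAI3-AS1, antisense to SNAI3, rose by 1.72 in 2102 EP (edgeR adjusted p = 0.00245) and by 1.65 in TCam-2 (0.00116). Since no use of strand is stated, reads of such pairs cannot be told apart.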

How the data were processed

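Gene expression was measured in 12 libraries of 2 cell lines, in 4 groups of 3. Total RNA was isolated with an RNeasy kit and made into Lexogen QuantSeq 3′ libraries, per the labels. The deposited values are the authors' estimated counts per gene from Salmon 1.9.0. Trim Galore, STAR 2.7.11b, R 4.2.0, DESeq2 and GRCh38 also stand in the submitters' processing notes. For their order, the annotation and the use of strand, nothing is given in the sources used here. Values off a whole number by over 0.01 were taken to hold reads shared between genes.

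Estimated counts were rounded and tested in edgeR 4.0.16 (R 4.3.3; TMM, filterByExpr by group, glmQLFit robust, glmQLFTest) with 4 group means over all 12 libraries and 8 residual degrees of freedom. Standard errors are the fold change divided by the square root of F. CPM used all counts of a library as its total. Depth ran from 7290335 to 10053366 counts, and count intervals (95%) and floors cover counting error only. Alternatives were DESeq2 1.42.0, RLE scaling, no filter, blocks by replicate number or library code, only the groups compared, and each library left out.

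The members and lists were chosen with earlier results of these data known. Named list genes were up to 4 per list and line with the largest fold change among those called with at least 10 CPM in the higher group, and the 3 most alike genes were named for 5 members. Positions are GENCODE 29 on GRCh38, where 58228 of 63241 gene identifiers were found. Promoters are RefSeq, GRCh38.p14.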

Additional observations from a re-analysis of the deposited data

Results flagged for a closer look

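The effect of I-BRD9 differed between the lines, by a test of the difference itself (edgeR's quasi-likelihood test, adjusted over all genes tested), for 5 genes of the set. The difference in log2 fold change, TCam-2 minus 2102 EP, was -1.516 for TWIST1 (adjusted p = 0.00379), -3.855 for VIM (2.57e-15), -2.126 for CDH2 (1.66e-10), -2.757 for THY1 (2.32e-09) and -1.837 for TGFBI (8.19e-05). All 3 replicates of each line took part in each value, and 13.1% of all genes passed the same test.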

How the results depend on the processing

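Over 45 pairs of member and comparison, 580 values were computed under the alternatives: 560 kept their direction and their side of the threshold, 5 no longer passed, 8 newly passed and 7 changed sign, for results that were not called in either setting. With each library left out, CDH1 in 2102 EP (-0.04) ran from -0.17 to 0.16 and the SNAI1 difference between the lines' effects (-0.10) from -0.49 to 0.237. CDH1 was 0.027 and 0.0258 without 2102 EP DMSO replicate 1 and 2 and 0.16 without I-BRD9 replicate 1. The SNAI1 value was 0.0756 without 2102 EP I-BRD9 replicate 3, 0.013 and 0.237 without TCam-2 DMSO replicate 1 and 3, and 0.0407 without TCam-2 I-BRD9 replicate 1. Of the counts of members called, 1 moved by over 1.5 times: the number that rose in TCam-2 was 2, and 1 without the low-count filter, and between 1 and 2 with each library left out, TGFBI being the gene lost (values beside it above). RLE scaling shifted the median of all genes by at most 0.0203 in size. Of 1040 alternative counts for the lists, 68 differed by over 1.5 times.

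The replicate numbers did not pair the libraries: the correlation of deviations between same-numbered libraries ran from -0.119 to 0.16 over 18 pairs, with 4 over 0.1. A replicate block changed 0 member calls, and so did a block by library code. With the replicate block, 5512 genes were called in 2102 EP and 4714 in TCam-2, beside 5739 and 4959 without it. Depth limits ZEB1, ZEB2 and SNAI2 in TCam-2, where at most 6 counts stood in a group. It also limits SNAI1 in that line, which had 13 counts with DMSO and 10 with I-BRD9.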
